A study of Mus musculus with 10 samples.

Results

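Pulmonary neuroendocrine cell genes were read in 5 Hdac3 knockout and 5 control lungs, taken whole from mouse fetuses at E18.5, shortly before birth. The 9 genes chosen were Calca, Chga, Chgb, Resp18, Scg2, Scg5, Pcsk1, Ddc and Uchl1, each read from the probe set annotated to that symbol alone, or from the one with the highest mean where a gene had several. The annotation used here names a probe set for 7 of the 9, out of 17919 genes in all. Calca and Chgb had none in it and were not analysed here. Knockout lungs were labelled Shhcre:Hdac3fl/fl, in which the Cre recombinase driven from the Shh locus deletes floxed Hdac3 in the lung epithelium. Control lungs were labelled Shhcre, so both groups carry the Cre. The label does not state the Hdac3 alleles of the controls, and the breeding pairs were Hdac3 fl/fl females and Hdac3 fl/+ ShhCre males. A control from such a pair carries a floxed allele from its mother. With the Cre, its epithelium may then have lost a copy of Hdac3 as well. The strain background was a mix of C57BL/6 with 129X1 and 129S6. Mesenchymal, endothelial, blood and nerve cells of these lungs keep Hdac3.

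Pulmonary neuroendocrine cells are rare sensory cells of the airway epithelium that sit singly or in innervated clusters. They store peptides and amines in dense core granules and release them in response to signals such as airway oxygen and stretch. Granins help to form the granules, a prohormone convertase cuts the stored precursors into active peptides, and a decarboxylase makes the amines. The cells arise from airway progenitors, and Notch signalling keeps their number low.

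The values are log2 levels of probe sets, and 1 unit is a doubling. A level of 6.3 was used as a mark of dim signal: 19.9% of the genes had a mean below it. Levels of different probe sets were not set against each other, because each probe set has its own response. Of the 70 values of the 7 genes, 34 lay under 6.3, 18 of 35 in knockout lungs and 16 of 35 in control lungs. Resp18 and Scg5 lay under the mark in all 10 lungs, and Chga and Uchl1 above it in all 10. The deleted gene itself, Hdac3, averaged 10.50 ± 0.11 in knockout and 10.81 ± 0.10 in control lungs (SD, n = 5 each), a log2 difference of -0.31 (limma adjusted p = 0.0203). In whole lung, fewer cells of a type and less RNA per cell cannot be told apart.

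The promoters printed here are shown because they belong to the 3 genes whose levels differed in at least one fit and to Chga, the granin most used as a marker. They are RefSeq promoters of GRCm38.p6, each 300 bases long and ending 50 bases after the start site, and each reads 5′ to 3′ along its gene. The capitals mark TGACG or its reverse complement, the core of the cAMP response element known from granin promoters.
Scg2 (chr1:79439977-79440276, minus strand): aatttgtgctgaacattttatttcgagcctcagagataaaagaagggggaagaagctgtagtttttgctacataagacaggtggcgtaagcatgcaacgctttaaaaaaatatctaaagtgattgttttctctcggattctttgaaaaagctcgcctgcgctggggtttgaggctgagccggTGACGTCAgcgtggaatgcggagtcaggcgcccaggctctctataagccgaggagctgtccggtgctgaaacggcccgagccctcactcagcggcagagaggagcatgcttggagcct
Pcsk1 (chr13:75089607-75089906, plus strand): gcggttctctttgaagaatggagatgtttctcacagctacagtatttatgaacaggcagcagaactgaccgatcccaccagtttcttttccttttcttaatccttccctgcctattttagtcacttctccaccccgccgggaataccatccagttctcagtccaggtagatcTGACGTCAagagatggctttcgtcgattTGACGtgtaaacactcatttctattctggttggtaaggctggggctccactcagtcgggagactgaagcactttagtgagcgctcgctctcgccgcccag
Chga (chr12:102554691-102554990, plus strand): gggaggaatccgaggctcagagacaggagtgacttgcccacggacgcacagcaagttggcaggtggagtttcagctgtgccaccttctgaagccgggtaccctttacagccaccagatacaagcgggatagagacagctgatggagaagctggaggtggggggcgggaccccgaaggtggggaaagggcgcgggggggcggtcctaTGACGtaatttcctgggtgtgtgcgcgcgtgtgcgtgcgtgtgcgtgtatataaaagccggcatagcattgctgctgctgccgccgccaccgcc
Ddc (chr11:11898095-11898394, minus strand): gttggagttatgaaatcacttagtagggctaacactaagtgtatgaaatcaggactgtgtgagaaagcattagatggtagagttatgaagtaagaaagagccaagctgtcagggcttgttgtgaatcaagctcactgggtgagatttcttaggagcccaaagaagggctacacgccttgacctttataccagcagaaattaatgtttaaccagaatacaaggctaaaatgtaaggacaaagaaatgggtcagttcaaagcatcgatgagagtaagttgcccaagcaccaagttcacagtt

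The full palindrome TGACGTCA was found in the promoters of 2 of the 7 measured genes. It starts 68 bases upstream of the start site in Scg2 and 78 bases upstream in Pcsk1. Of 32851 promoters of this length in the table, 1.79% hold it. The core TGACG, searched on both strands and contained in the palindrome, was found for 4 of the 7 genes, Scg2, Pcsk1, Chga and Scg5, and in 20.8% of all promoters. In Chga the core stands 44 bases upstream of the start site. Neither of the 2 listed Ddc promoters holds these letters, and nor do those of Resp18 and Uchl1. The E-box CANCTG, a site type bound by basic helix-loop-helix factors, was found for 4 of the 7 genes and in 51.4% of all promoters. A match is a description of letters and not of a used site.

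Of the 7 measured genes, 1 was higher and 1 was lower in knockout lungs, while 3.12% of all 17919 genes differed in either direction (limma, adjusted p under the threshold of 0.05 over all genes). Pcsk1 rose and Ddc fell. With the replicate number as a block, Scg2 was lower as well, so that 1 member was higher and 2 were lower, against 4.72% of all genes called in that fit in either direction, 2.28% higher and 2.44% lower. The median log2 difference of the 7 genes was 0.06, beside 0.00 over all genes. The genes were picked with earlier results of these data known, so the share called is a description of this list and nothing is read from it.

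**Figure D1:**
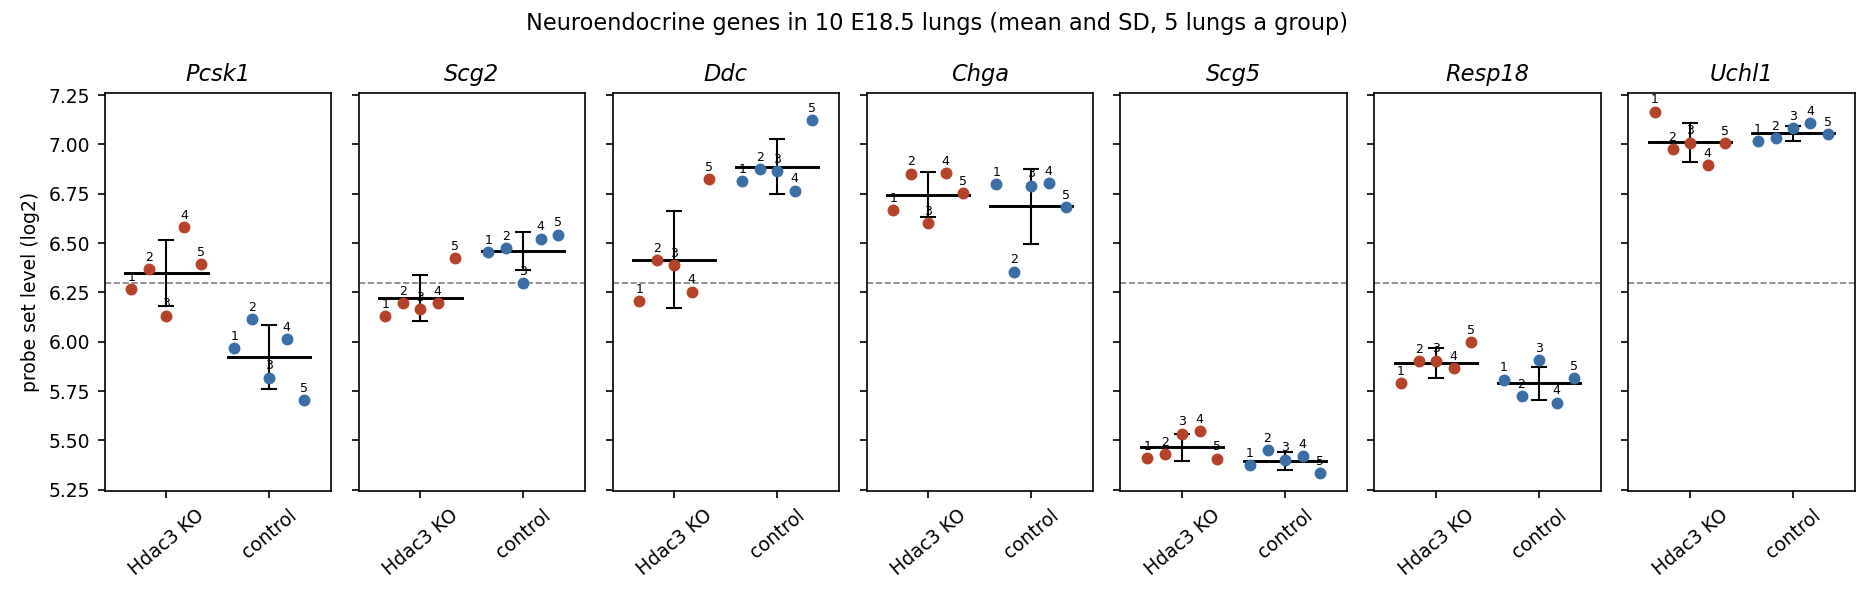
Level of each measured neuroendocrine gene (log2, vertical axis) in the 5 Hdac3 knockout lungs (red, left) and the 5 control lungs (blue, right), numbered by replicate. Black bars give the mean and SD and the dashed line the mark of 6.3. Pcsk1 is the gene whose groups do not overlap, and knockout 5 stands above the other knockouts for Scg2 and Ddc.

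Chga encodes chromogranin A, a granin that drives the formation of dense core granules. Its level was 6.67, 6.85, 6.60, 6.86 and 6.75 in knockout lungs 1 to 5, against 6.80, 6.35, 6.79, 6.80 and 6.68 in control lungs 1 to 5. The groups overlapped, and control 2 lay below every other lung. The log2 difference was 0.06 with a 95% interval from -0.13 to 0.25 (limma adjusted p = 0.856). Without control 2 it was -0.02.

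Scg2 encodes secretogranin II, the precursor of the peptide secretoneurin. Its level was 6.13, 6.20, 6.16, 6.20 and 6.42 in knockout lungs 1 to 5, against 6.46, 6.47, 6.298, 6.52 and 6.54 in control lungs 1 to 5. Knockouts 1 to 4 lay below all controls, and knockout 5 lay above control 3 alone. The log2 difference was -0.24 ± 0.07 (SE), or 84.9% of the control level, and did not pass over all genes (limma adjusted p = 0.0866). With the replicate block it passed (limma adjusted p = 0.0392), and the knockout lung was lower than the control of the same number in 5 of 5 pairs. The exact permutation test over all splits of the 10 lungs into 5 and 5 gave p = 0.0159 (two-sided, smallest p possible 0.00794, not adjusted for the number of genes, as for the other genes). These splits do not keep same-numbered lungs as pairs, here and for the other genes. Of the 10 values, 4 in knockout lungs and 1 in control lungs lay under 6.3.

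Scg5 encodes 7B2, a chaperone of the convertase Pcsk2. Its level ran from 5.41 to 5.55 in knockout lungs and from 5.34 to 5.45 in control lungs. All 10 values lay under the mark, and the difference of 0.07 (95% interval -0.03 to 0.17) did not pass (limma adjusted p = 0.607). Resp18, which encodes a granule protein related to the Ptprn family, ran from 5.79 to 6.00 in knockout lungs and from 5.69 to 5.91 in control lungs. Its difference of 0.10 (95% interval -0.02 to 0.22) did not pass either (limma adjusted p = 0.472). Among the 3562 genes with a mean under 6.3, 1.32% were called.

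Pcsk1 encodes prohormone convertase 1/3, which cuts peptide precursors inside the granule. Its level was 6.27, 6.37, 6.13, 6.58 and 6.39 in knockout lungs 1 to 5, against 5.97, 6.12, 5.82, 6.01 and 5.70 in control lungs 1 to 5. Every knockout lung lay above every control lung, which was so for 1 of the 7 members. Over all genes the groups did not overlap for 5.11%, with the knockout lungs higher for 2.44% and lower for 2.66%. Pcsk1 averaged 6.35 ± 0.17 in knockout and 5.92 ± 0.16 in control lungs (SD, n = 5 each). It rose by 0.43 ± 0.09 on the log2 scale (SE), to 134% of the control level (limma adjusted p = 0.0265, exact permutation p = 0.00794). All controls and 2 of the 5 knockouts lay under 6.3. With values floored at 6.3, where 2.54% of all genes and 0 members were called, the difference was 0.09 and did not pass (limma adjusted p = 0.548). The call was also lost without knockout 2 or 4 or without control 1, 3 or 5, at adjusted p from 0.0542 to 0.0742. Its difference was 0.29 over the lungs numbered 1 to 3 and 0.63 over those numbered 4 and 5, neither called alone, and the gap between these was not tested.

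Ddc encodes aromatic L-amino acid decarboxylase, the enzyme of the last step to serotonin and dopamine. Its level was 6.20, 6.41, 6.39, 6.25 and 6.82 in knockout lungs 1 to 5, against 6.81, 6.87, 6.86, 6.77 and 7.12 in control lungs 1 to 5. Knockouts 1 to 4 lay below all controls, and knockout 5 lay among them. Lung 5 was the highest of its group in both groups. Ddc averaged 6.42 ± 0.24 in knockout and 6.89 ± 0.14 in control lungs (SD, n = 5 each). It fell by 0.47 on the log2 scale (SE 0.11), to 72.1% of the control level (limma adjusted p = 0.0355, exact permutation p = 0.0238). With the replicate block the limma adjusted p was 0.00221, and the 5 same-numbered differences ran from -0.61 to -0.30. Without knockout 5 the difference was -0.57 (limma adjusted p = 0.00165). Leaving out any other single lung ended the call without the block, at adjusted p from 0.0515 to 0.0892, with the difference between -0.50 and -0.41. With values floored at 6.3 it was -0.44, not called without the block (limma adjusted p = 0.0954) and called with it (0.0199). Among genes with a mean of at least 6.3 alone, Ddc was called, as 1 of 4 members in that fit, beside 4.07% of the genes.

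Uchl1 encodes the ubiquitin hydrolase PGP9.5, long used to stain neuroendocrine cells and nerves. Its level was 7.17, 6.98, 7.01, 6.89 and 7.01 in knockout lungs 1 to 5, against 7.02, 7.03, 7.08, 7.11 and 7.05 in control lungs 1 to 5. Of the 5 knockouts, 4 lay below all controls, and knockout 1 lay above all of them. The controls spanned a narrow range, and the highest of these 4 knockouts was 7.008 against 7.015 in the lowest control. The difference was -0.05 with a 95% interval from -0.16 to 0.07 (limma adjusted p = 0.792). A second Uchl1 probe set, dimmer on this array and under 6.3 in every lung, gave a difference of 0.10 (limma adjusted p = 0.690), opposite in sign and likewise not called.

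**Figure D2:**
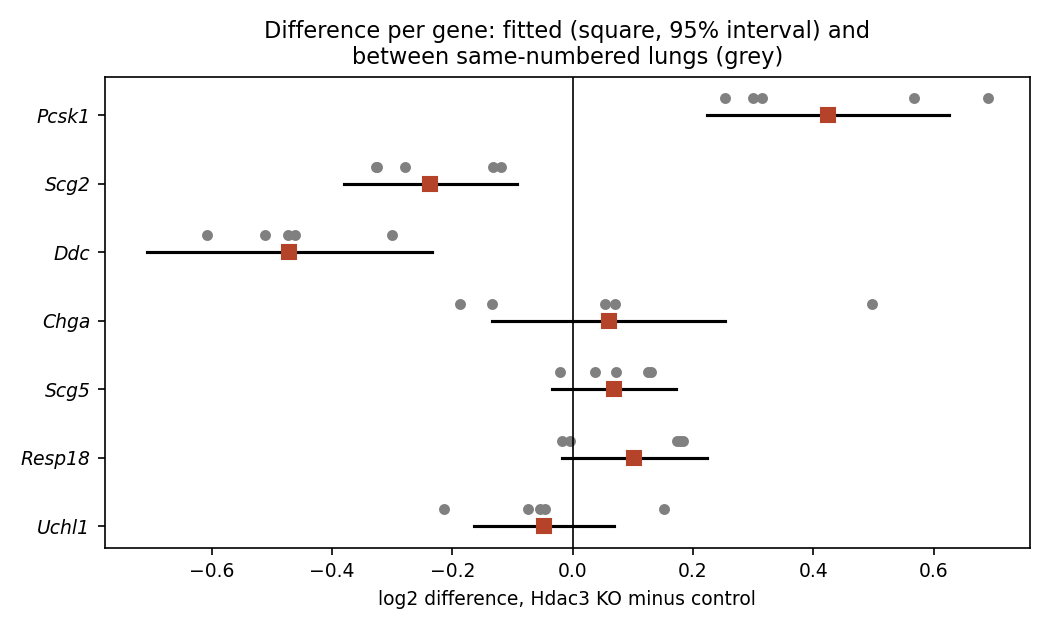
Log2 difference of each gene, knockout minus control (horizontal axis), as the fitted value with its 95% interval (red square, black line) and as the 5 differences between lungs of the same number (grey points). Pcsk1 lies to the right of 0 in 5 of 5 same-numbered pairs, Ddc and Scg2 to the left in 5 of 5, and the intervals of the other 4 genes include 0.

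The members were also compared with each other among lungs of the same group. After each group's mean was taken out, 7 of the 21 pairs of genes correlated above 0 and 14 below 0 over the 10 lungs, with a median Pearson r of -0.17. No pair passed Benjamini-Hochberg adjustment over the 21 (permutation test, smallest adjusted p = 0.386), and 2 pairs had an unadjusted p under 0.05. Scg2 and Ddc were the closest pair, with Pearson r = 0.73 (permutation p = 0.0185) and Spearman rho = 0.53 (permutation p = 0.118). That r was 0.63 without the 2 lungs farthest from the median of Scg2, and 0.22 over the 6 lungs numbered 1 to 3. Resp18 and Ddc had r = 0.66 (permutation p = 0.037) and rho = 0.65 (permutation p = 0.0496), with r = 0.52 without the 2 lungs farthest from the median of Resp18. These permutations treat the 10 lungs as independent, although same-numbered lungs deviated together and lung 5 was the highest of its group for Scg2 and Ddc in both groups, so the p may be too small. The granins Chga and Scg2 had r = -0.03 (permutation p = 0.933).

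The genes whose levels followed Ddc most closely were then listed. Among 14356 other genes with a mean of at least 6.3, Iqcf6, Ect2l and Cfap70 had the highest Pearson r with Ddc after removal of group means, at 0.97, 0.96 and 0.96 over the 10 lungs. These values are the highest of many and are given as a description. Cfap70 encodes a protein of the ciliary axoneme. Its level was 7.51, 7.66, 7.71, 7.52 and 7.95 in knockout lungs 1 to 5, against 7.82, 7.81, 7.87, 7.85 and 8.03 in control lungs 1 to 5. As for Ddc, lung 5 was the highest of its group in both groups. None of the 3 was called (limma adjusted p = 0.642, 0.0832 and 0.279), and Ect2l was with the replicate block (limma adjusted p = 0.0225).

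A list of motile cilium genes, put together after Cfap70 was seen, was then read in the same lungs. Of 22 listed genes 19 were measured, and 3 were lower in knockout lungs and 0 higher, beside 1.58% and 1.54% of all genes. By their values 14 of the 19 were lower and 5 higher, beside 8604 lower and 9315 higher of all 17919 genes. The median log2 difference of the 19 was -0.13. The 3 encode parts of axonemal dynein. They were Dnah11, Dnah9 and Dnaic2, with differences of -0.36, -0.27 and -0.26 (limma adjusted p = 0.00035, 0.00663 and 0.0287). Of the 5 higher by value, Foxj1, the master regulator of motile cilia, stood at 0.12 (limma adjusted p = 0.371). The dynein gene Dnah5 stood at 0.15 (limma adjusted p = 0.101) and was called higher with values floored at 6.3 (0.0389). The mean level of the list ran from 7.72 to 7.86 in knockout lungs and from 7.83 to 7.95 in control lungs. Knockout 5 had the highest mean among the knockouts and control 5 among the controls. Over the 10 lungs with group means removed, Ddc followed the list without Cfap70 with r = 0.84, with 0.65 without the 2 lungs farthest from the median of Ddc, and with 0.56 over the 6 lungs numbered 1 to 3. For Resp18 that r was 0.67, and 0.43 without the 2 lungs farthest from its median. For Scg2 it was 0.47, and 0.14 without 2 such lungs. For the other 4 members it lay between -0.44 and -0.17. Over the 6 lungs numbered 1 to 3 the r was 0.59 for Scg2, 0.66 for Scg5 and 0.12 for Resp18. It was below 0 for Chga, Pcsk1 and Uchl1. The list was drawn up because Cfap70 followed Ddc in these same lungs, so a high r with Ddc was built in. Leaving out Cfap70 does not remove that choice, and the r is given as a description. What part cilium genes and Ddc share was not tested.

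**Figure D3:**
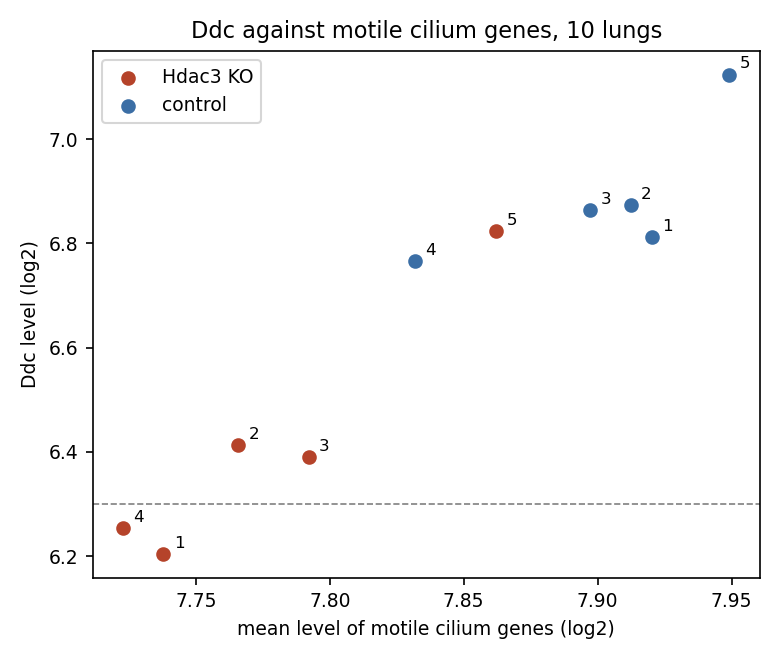
Level of Ddc (log2, vertical axis) against the mean level of 19 motile cilium genes (log2, horizontal axis) in each knockout lung (red) and control lung (blue), numbered by replicate, with the dashed line at 6.3. Knockout 5 lies beside the control lungs on both axes, and knockouts 1 to 4 lie below all controls on both.

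Sox2 is a transcription factor of the airway epithelium in which neuroendocrine and ciliated cells arise. Its values lay lower in every knockout lung than in every control lung, as for 2.66% of all genes. Its level was 6.78, 6.95, 7.12, 7.55 and 7.56 in knockout lungs 1 to 5, against 7.86, 7.60, 7.64, 7.82 and 8.24 in control lungs 1 to 5. The log2 difference was -0.64 ± 0.16 (SE), not called without the block (limma adjusted p = 0.0553) and called with it (0.00936). Of the 13 lung epithelium markers, all measured, 2 were higher and 0 lower, beside 1.54% and 1.58% of all genes, and by their values 7 were higher and 6 lower. Krt18 and Krt8, keratins of simple epithelia, rose by 1.34 and 0.74 (limma adjusted p = 1.6e-06 and 1.75e-05). Cdh1, the cadherin of epithelia, stood at 0.18 (limma adjusted p = 0.0517) and was called higher with values floored at 6.3 (0.0232). The surfactant gene Sftpc, at 13.44 in knockout and 13.46 in control lungs, was not called. Sftpb and the airway gene Scgb1a1, the next brightest of the list, stood at -0.01 and -0.15, and Foxj1 at 0.12, none called. The mean level of the epithelium list ran from 10.69 to 10.87 in knockout and from 10.60 to 10.71 in control lungs. That mean includes Krt18 and Krt8, the largest rises of the list, whose median log2 difference was 0.00.

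The regulators of neuroendocrine fate came from a list of transcription factors. Of 13 listed, 9 were measured, 0 were higher and 1 was lower, beside 1.54% and 1.58% of all genes. That gene was Mycl, a MYC family factor known from small cell lung cancer, at 5.94 ± 0.10 in knockout and 6.23 ± 0.07 in control lungs (SD, n = 5 each). It fell by 0.29 (limma adjusted p = 0.0154), but 9 of its 10 values lay under 6.3 and the call was lost with values floored there (limma adjusted p = 0.839). Insm1, a zinc finger factor of endocrine differentiation, stood at 0.12 ± 0.09 (SE, limma adjusted p = 0.649). Rest, the repressor of neuronal genes, stood at -0.03 and Sox4, a factor of progenitors, at -0.07, neither called. Neurod1 was among those not analysed here.

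Of 14 other neuroendocrine products and sensors, 13 were measured and 0 were called by limma in either direction, with 1 at an unadjusted p under 0.05. That was Maob, monoamine oxidase B, at -0.14 (limma adjusted p = 0.233). Grp, the gene of gastrin-releasing peptide, a hallmark peptide of these cells, averaged 8.59 ± 0.06 in knockout and 8.52 ± 0.10 in control lungs (SD, n = 5 each). Its difference was 0.07 ± 0.06 (SE, limma adjusted p = 0.701). Tph1, the enzyme of the first step to serotonin, stood at 0.10 with every lung under 6.3. Syp, the vesicle protein synaptophysin, stood at -0.06.

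Of 20 genes of the secretory granule and its release, 17 were measured and 0 were called by limma, with 0 at an unadjusted p under 0.05. Rab27a, a small GTPase of granule docking, had the smallest p, at 0.17 ± 0.09 (SE), and Snap25, of the fusion machinery, stood at 0.10 ± 0.05. Of 12 genes of amine synthesis and handling, 10 were measured and 0 were called, with 0 at an unadjusted p under 0.05. Hdc, the histamine enzyme known from mast cells, stood at 0.57 ± 0.27 (SE, limma adjusted p = 0.391). Its level was 10.03, 9.98, 9.89, 10.41 and 8.76 in knockout lungs 1 to 5, against 9.16, 9.29, 8.86, 9.89 and 9.02 in control lungs 1 to 5. Without knockout 5, the lowest of all, Hdc was called at 0.84 (limma adjusted p = 0.0276). Pcbd1, which recycles the cofactor of aromatic amino acid hydroxylases, stood at -0.16.

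Of 13 receptors and ligands around Calca and Grp, 11 were measured and 0 were called by limma, with 0 at an unadjusted p under 0.05. Calcrl, the receptor for the Calca peptide CGRP, stood at -0.09 and its partner Ramp1 at 0.10. Calcr, the calcitonin receptor, stood at -0.08 with every lung under 6.3. Of 18 Notch pathway genes, 17 were measured and 0 were called, with 0 at an unadjusted p under 0.05. Jag1, a Notch ligand, stood at -0.20 ± 0.11 (SE), Lfng, which modifies Notch receptors, at -0.16, and the target Hes1 at -0.05. Of 6 genes of the Slit and Robo guidance system, which holds neuroendocrine clusters together, all were measured and 0 were called, with 1 at an unadjusted p under 0.05. That was Slit2, at -0.14 ± 0.05 (SE, limma adjusted p = 0.233), and Robo1 stood at -0.08. Of 4 measured relatives of Uchl1, 0 were called and 0 had an unadjusted p under 0.05, with Uchl3 at -0.35 ± 0.21 (SE) and under 6.3 in every lung, and Uchl5 at 0.06. Together, these lists held 87 measured genes, of which 0 were higher and 1 was lower, beside 1.54% and 1.58% of all genes.

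**Figure D4:**
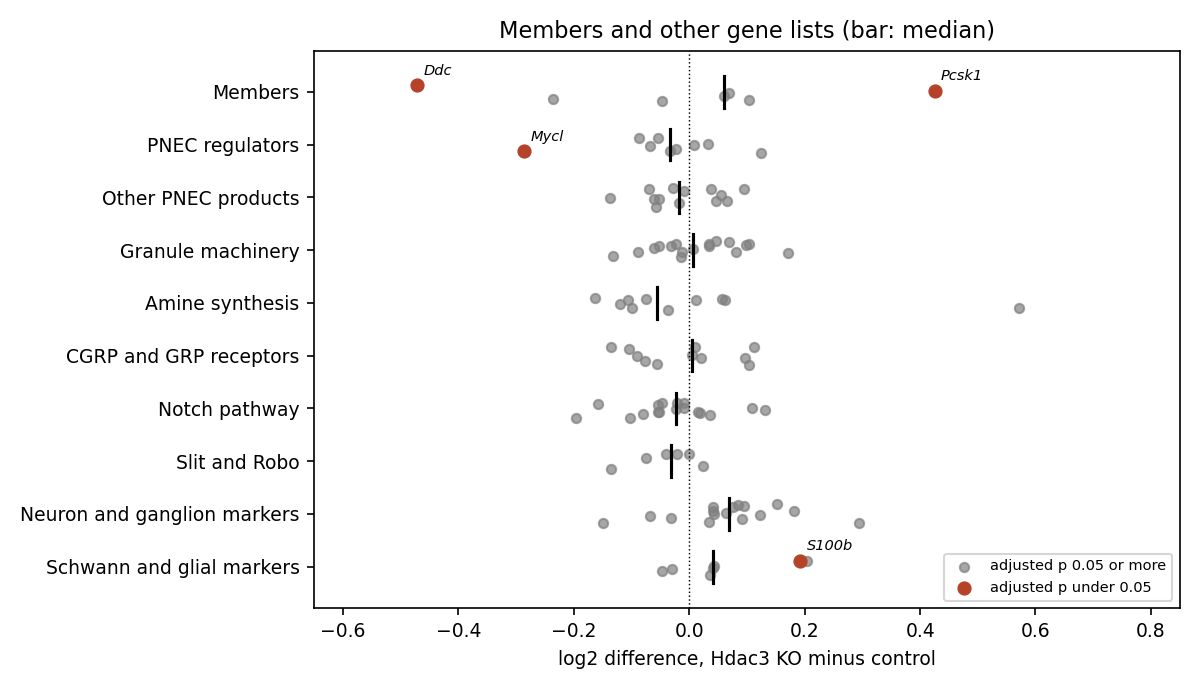
Log2 difference, knockout minus control (horizontal axis), of the 7 measured members and of the genes of 9 other lists, with called genes (limma adjusted p under 0.05) in red, the others in grey and each list's median as a bar. Called genes are Pcsk1, Ddc, Mycl and S100b, and the list medians lie close to 0.

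Other cells that use the same genes were read from marker lists. Of 20 neuron and ganglion markers, 16 were measured and 0 were called by limma, with 3 at an unadjusted p under 0.05. By their values 13 of the 16 were higher and 3 lower in knockout lungs, beside 9315 and 8604 of all 17919 genes. The median difference of the 16 was 0.07. The mean level of the list ran from 6.37 to 6.47 in knockout and from 6.29 to 6.38 in control lungs, and 6 of its 16 genes lay under 6.3 in every lung. Among the 3 brightest, Stmn2, a tubulin regulator of neurons, stood at 0.18, the neurofilament gene Nefh at -0.03, and Snap91, of vesicle recycling, at 0.10. The 3 genes with an unadjusted p under 0.05 were named after their values were seen. Gap43, a growth cone protein, stood at 0.29, Npy at 0.15 and Gal at -0.15 (limma adjusted p = 0.0708, 0.338 and 0.331). The part of nerve cells in the Pcsk1 difference was not tested.

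Of 10 Schwann and glial markers, 7 were measured, 1 was higher and 0 were lower, beside 1.54% and 1.58% of all genes. S100b rose by 0.19 (limma adjusted p = 0.0446), with every value under 6.3, and was not called with the block (0.0825). Erbb3, Fabp7 and Foxd3 had the highest means of that list, and their differences were 0.20, 0.04 and 0.04, none called. By their values 5 of the 7 were higher and 2 lower, beside 9315 and 8604 of all 17919 genes. The lower ones were Sox10 at -0.03 and Gfap at -0.05. The mean level of the list ran from 7.32 to 7.36 in knockout lungs and from 7.23 to 7.31 in control lungs, so the groups did not overlap. Erbb3 and S100b had the largest differences in that mean, and how often lists of this size do not overlap was not examined. Which cells of the whole lung gave the Erbb3 signal was not examined. The part of glia in the differences of the members was not tested. Of 5 measured thyroid and parathyroid markers, whose C cells also make Calca, 11 measured gut and pancreas endocrine markers and 5 measured chromaffin markers, limma called 0, and 0 reached an unadjusted p under 0.05. The thyroid list ran from 6.09 to 6.25 in knockout and from 6.02 to 6.26 in control lungs. The gut and pancreas list ran from 6.37 to 6.55 in knockout and from 6.37 to 6.59 in control lungs. The chromaffin list ran from 6.15 to 6.43 in knockout and from 6.18 to 6.35 in control lungs. These 3 ranges overlapped between the groups. Of 7 markers of other lung cells 5 were measured and limma called 0, with 0 at an unadjusted p under 0.05. By their values 0 were higher and 5 lower, with a median difference of -0.07. That list ran from 10.82 to 10.88 in knockout and from 10.87 to 10.99 in control lungs.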

How the data were processed

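The deposited table holds log2 probe set levels for each lung, measured on Affymetrix mouse gene arrays with 1 array a lung. Per the submitters' processing notes, the authors used oligo, RMA and limma; the sources used here give no versions, genome build or row filter. Scanner files were not used here. The table has 24888 probe sets, of which 18922 have 1 gene symbol, 1343 several and 4623 none in the platform annotation. Values run from 3.53 to 13.61, and sample medians from 7.43 to 7.46. The number of arrays limits the precision. The labels call the lungs biological replicates.

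Knockout was compared with control by limma 3.58.1 (R 4.3.3, lmFit and eBayes, two-sided) on 17919 genes, 1 probe set each, with Benjamini-Hochberg adjustment and a threshold of 0.05. Fold changes are differences of log2 levels. Exact permutation tests enumerated all splits of the lungs regardless of replicate number, and correlations used 100000 permutations (Python 3.11.15, scipy 1.17.1). On simulated data over 17919 genes, limma called 14 of 50 genes changed by 0.25, 44 of 50 by 0.5, and 50 of 50 by 1, on the log2 scale.

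Deviations of same-numbered lungs from their group means correlated at 0.15 to 0.49 in all 5 pairs. Pairs of different number had a median of -0.08 and ran from -0.39 to 0.33, above 3 of the 5 same-numbered values. By the rule that every same-numbered pair lies above 0.1, the numbers were taken as pairs and block values are given. The labels do not say what a number shares, and the pairing comes from the data.

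Members and lists were chosen with earlier results of these data known. Named genes are the members, called genes of each list or its 2 smallest p, the 3 brightest markers of other cells, and, among others, Insm1, Neurod1, Grp, Tph1, Syp, Rest, Hes1, Dll3, Calcrl and Ramp1 where measured. Gap43, Npy, Gal, the motile cilium list and its genes were added after values were seen. Sox2 and Cdh1 are also named, though neither was called in the main fit nor among the 3 brightest of its list. Likeness was planned for Calca, and was read for Ddc instead, chosen after its values were seen. Median-centred, quantile-normalized, floored, filtered, left-out and every-probe-set fits were alternatives.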

Additional observations from a re-analysis of the deposited data

Results flagged for a closer look

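Among 82 groups of 5 lungs, from the members, Hdac3 and a part of the list genes, 6 held a lung far from the other lungs of its group. Chance flags about 1 in 20 groups. Of the 14 groups of the 7 neuroendocrine genes, 2 did. Scg2 in knockout 5 was 6.42, against 6.20 in the nearest and 6.13 in the farthest of the other knockouts. Chga in control 2 was 6.35, against 6.68 in the nearest and 6.80 in the farthest of the other controls. Insm1 in control 2 was 7.27, against 7.46 in the nearest other control, and Uchl5 in control 2 was 8.48, against 8.26 in the nearest other control. Nefh, a neurofilament gene, was 7.12 in knockout 4, against 7.01 in the nearest other knockout, and 6.88 in control 2, against 7.08 in the nearest other control. Control 2 was the lung in 4 of the 6 cases.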

How the results depend on the processing

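Over all genes, limma called 559, against 846 with the replicate block. With the sets numbered 1 to 3 and 4 to 5 as a block (an alternative chosen after seeing the data) it called 910. It called 448 with numbers 1 to 3 alone, 2 with numbers 4 and 5 alone, and 393 to 699 when 1 lung was left out. With values floored at 6.3 it called 456, and 411 with block and floor together. Of the 7 measured members it called 2, against 3 with the block or with the sets as a block, 1 with numbers 1 to 3 alone (Ddc), and 1 of 4 with genes of a mean of at least 6.3 (Ddc; Pcsk1 was not in that fit). It called 0 with values floored at 6.3 (2 at an unadjusted p under 0.05), 0 with numbers 4 and 5 alone (1 at an unadjusted p under 0.05), and 1 with block and floor together, also chosen after seeing the data. Leaving out 1 lung gave 0 to 3 members: 3 without knockout 5, 1 without knockout 1 or 3 or control 2 or 4, and 0 without knockout 2 or 4 or control 1, 3 or 5. By the exact permutation test 3 members had a p under 0.05, not adjusted for the 7 genes tested, and 3 or 4 when 1 lung was left out. That test was run for the members alone, so it has no share over all genes and nothing is read from the count. By limma 3 of the 7 had an unadjusted p under 0.05, beside 2428 of all 17919 genes. Of the 87 other genes 1 was called, against 0 with the floor (2 at an unadjusted p under 0.05), 0 with genes of a mean of at least 6.3 (2), 0 with numbers 4 and 5 alone (3), 2 with the sets as a block, where Jag1 was added at -0.20 (adjusted p = 0.0406), and 1 to 2 when 1 lung was left out. With numbers 1 to 3 alone the 1 gene was Hdc, and with block and floor together it was Rbpj, of the Notch list. Pcsk1, Ddc and Scg2 kept their direction in every alternative run. The difference of Uchl1 turned to 0.0079 with numbers 1 to 3 alone and to 0.10 in its other probe set, and that of Chga to -0.0227 without control 2. The cause of these shifts was not tested. Resp18 and Scg5 have no value with the floor, because every lung lies under it. The count of 0 adjusted correlations between members stayed at 0 when the means of the sets were also removed. The replicate block changed the call of Scg2, Sox2, S100b and Ect2l among the genes named, and of no other gene named except Mcidas and Ccno of the cilium list, which were called with it.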
